A study of Mus musculus with 4 samples.

Results

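The genes of oxidative phosphorylation were examined in RNA-seq libraries of whole mouse lenses lacking S100A4, a small calcium-binding protein of lens fiber cells, and of wild type (WT) lenses. Members were taken by gene symbol: the Nduf, Sdha to Sdhd, Uqcr, Cox4 to Cox8 and Atp5 genes of the nucleus and the mt-Nd, mt-Co, mt-Cyt and mt-Atp genes of mitochondrial DNA. The rule found 97 of the 14924 genes in the deposited table, 90 of them nuclear coded and 7 mitochondrially coded. All 97 passed the filter on low values, and 14780 genes were tested in all. The mouse mitochondrial genome holds 13 protein genes, and the other 6 were not analysed here.

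The S100A4 null (S100A4-/-) line carried the deletion in the whole animal and was kept on a C57BL/6J background, and the controls were WT littermates. Each group had 2 libraries (n = 2), and each library was made from polyA RNA of 6 to 12 pooled lenses of mice 1 month of age. The libraries held 81602367 and 74108017 reads on genes in S100A4-/- lenses and 70253985 and 68038158 in WT lenses. Values below are reads divided by a size factor for each library (normalized values), in the order S100A4-/- 1, S100A4-/- 2, WT 1 and WT 2.

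Oxidative phosphorylation passes electrons from NADH and succinate through complexes I to IV of the inner mitochondrial membrane to oxygen, and complex V (ATP synthase) uses the proton gradient so formed to make ATP. Mitochondrial DNA encodes core subunits of complexes I, III, IV and V, while the nucleus encodes all of complex II, most subunits of the others and the factors that assemble them. In the lens, mitochondria lie in the epithelium and the outer fibers, since fiber cells degrade their organelles as they mature.

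The libraries matched their labels. S100a4 itself had normalized values of 14.6 and 18.2 in S100A4-/- lenses and 14420 and 14385 in WT lenses. None of the 9 lens markers passed an adjusted p of 0.05 in limma. At an unadjusted p under 0.05, 1 did, where 17.7% of all genes tested did, and Mip alone was lower in edgeR and in DESeq2. The 9 leaned lower in S100A4-/- lenses, with a median log2 fold change of -0.063 and 7 of 9 below 0, where 51.2% of all genes were. Both S100A4-/- libraries lay below both WT libraries in 4 of the 9 and above in 1. Cryaa, an alpha crystallin, was the most abundant gene. The 4 lens epithelium markers included no call by any of the 3 tools, with 2 at an unadjusted p under 0.05: Gja1, a gap junction protein, at 4965, 4671, 4228 and 4443, and Cdh1, E-cadherin, at 2136, 2277, 2438 and 2489.

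The mitochondrially coded genes were higher in S100A4-/- lenses. All 7 rose (limma on log2 of the normalized value plus 1, Benjamini-Hochberg adjusted p of at most 0.05 over all genes tested), where 5.62% of all genes tested were called higher. Over all 97 members, 9 rose and 2 fell, and 6.96% of all genes tested were called in either direction. In all 7, both S100A4-/- libraries lay above both WT libraries, where 23.7% of all genes did so. The median log2 fold change was 0.37, with a range of 0.20 to 0.45, against -0.0052 over all genes tested. In these bulk libraries, a change in the share of cells of a type and a change in RNA per cell cannot be told apart.

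Among the 5 complex I members, mt-Nd5, a proton-pumping subunit (positions 11742 to 13565 of the mitochondrial genome, plus strand), stood at 23857, 22586, 16005 and 18155. It rose by a log2 fold change of 0.45 ± 0.05 (SE, adjusted p = 3.14e-09, limma). The neighbouring mt-Nd4 (10167 to 11544) stood at 15337, 15684, 11160 and 12868, a log2 fold change of 0.37. In both genes WT 1 was the lowest library and the groups did not overlap. mt-Nd2 (3914 to 4951) stood at 17553, 16939, 13603 and 15457, with a log2 fold change of 0.25. mt-Nd1 (2751 to 3707) stood at 23862, 23563, 20220 and 21102, and its log2 fold change of 0.20 was the smallest of the 7.

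mt-Nd6 is the protein gene that lies on the opposite strand to all others of the mitochondrial genome (13552 to 14070, minus strand). It stood at 1079, 942, 754 and 739, and rose by a log2 fold change of 0.43 ± 0.08 (SE, adjusted p = 1.99e-04, limma). Its end overlaps the end of mt-Nd5 over 14 bases (13552 to 13565), which is shown because reads there belong to 2 genes unless strand is used. All capitals mark the overlap, written on the plus strand.
mt-Nd5 and mt-Nd6 overlap: TTAATCTCGAGTAA
The libraries were stranded, but whether strand was used in counting is not given in the sources used here. mt-Nd6 is 519 bases long and mt-Nd5 1824. How far reads from the overlap add to either value was not tested.

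Outside complex I, mt-Cytb, the cytochrome b of complex III (14145 to 15288), had the highest value of the 7 at 53460, 53226, 40468 and 44206. Its log2 fold change was 0.33 ± 0.04 (SE, adjusted p = 1.85e-07, limma). mt-Co1, the catalytic subunit of complex IV (5328 to 6872), stood at 34463, 32746, 24318 and 25452 and had the smallest p of the group, with a log2 fold change of 0.43 ± 0.04 (SE, adjusted p = 3.24e-10, limma). The S100A4-/- libraries differed from each other by less than they differed from either WT library in both genes.

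**Figure D1:**
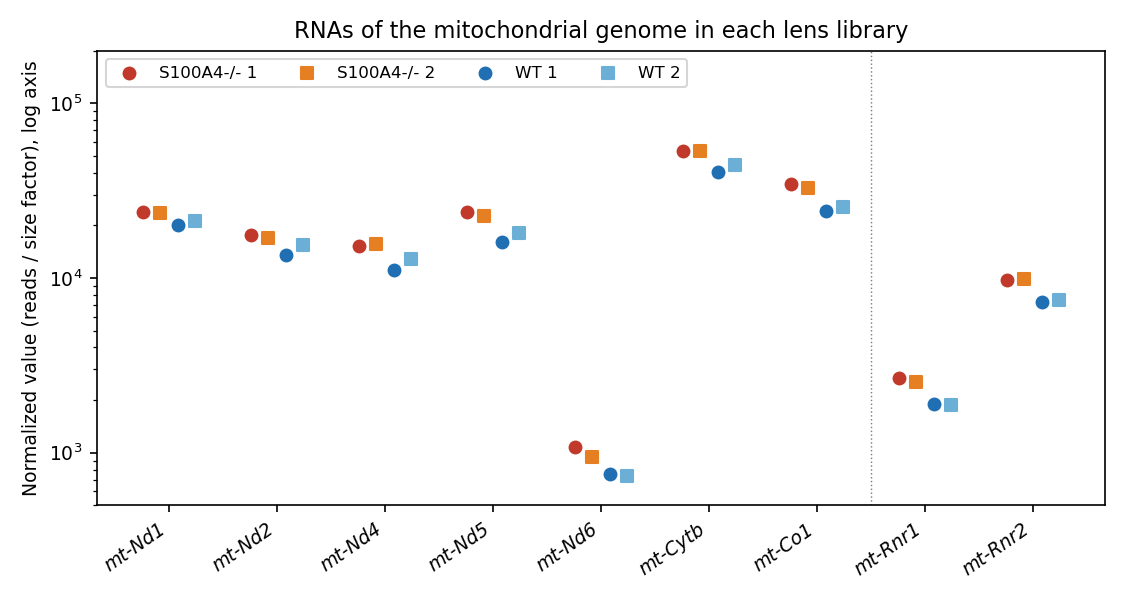
Normalized value (reads divided by the size factor, log axis) of each RNA of the mitochondrial genome analysed, in the 4 libraries; circles and squares are libraries 1 and 2 of each genotype, and the 2 ribosomal RNAs stand right of the dotted line. In every gene both S100A4-/- points lie above both WT points, as for mt-Co1 (34463 and 32746 against 24318 and 25452).

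The mitochondrial ribosomal RNAs, which the rule did not include, were higher as well. mt-Rnr2, the large subunit RNA, stood at 9710, 9885, 7275 and 7481, and mt-Rnr1, the small subunit RNA, at 2669, 2529, 1906 and 1870. Their log2 fold changes were 0.41 and 0.46 (adjusted p = 8.06e-09 and 2.34e-07, limma). The summed messenger to ribosomal ratio was 13.7, 13.4, 13.8 and 14.8.

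The 7 mitochondrially coded genes summed to 169610 and 165683 in S100A4-/- lenses and to 126528 and 137978 in WT lenses, a rise of the mean by 26.8%. The 90 nuclear coded genes summed to 290007 and 300731 in S100A4-/- lenses and to 313358 and 304525 in WT lenses, a mean ratio of 0.956. The ratio of the mitochondrial to the nuclear sum was 0.585 and 0.551 in S100A4-/- lenses and 0.404 and 0.453 in WT lenses. Multiplying all values of a library by the same factor leaves this ratio unchanged. Quantile normalization is not of that kind, and the ratio is not given under it. The ratio was 1.33 times as high in S100A4-/- lenses. On this scale the groups did not overlap in any of these 3 quantities, and each had an exact two-sided permutation p of 0.333, the smallest that 2 against 2 libraries allow. As a share of all reads on genes, the 7 genes took 0.243% and 0.221% in S100A4-/- lenses and 0.173% and 0.185% in WT lenses. The 90 nuclear genes took 0.415% and 0.400% against 0.427% and 0.409%, and there the groups overlapped.

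**Figure D2:**
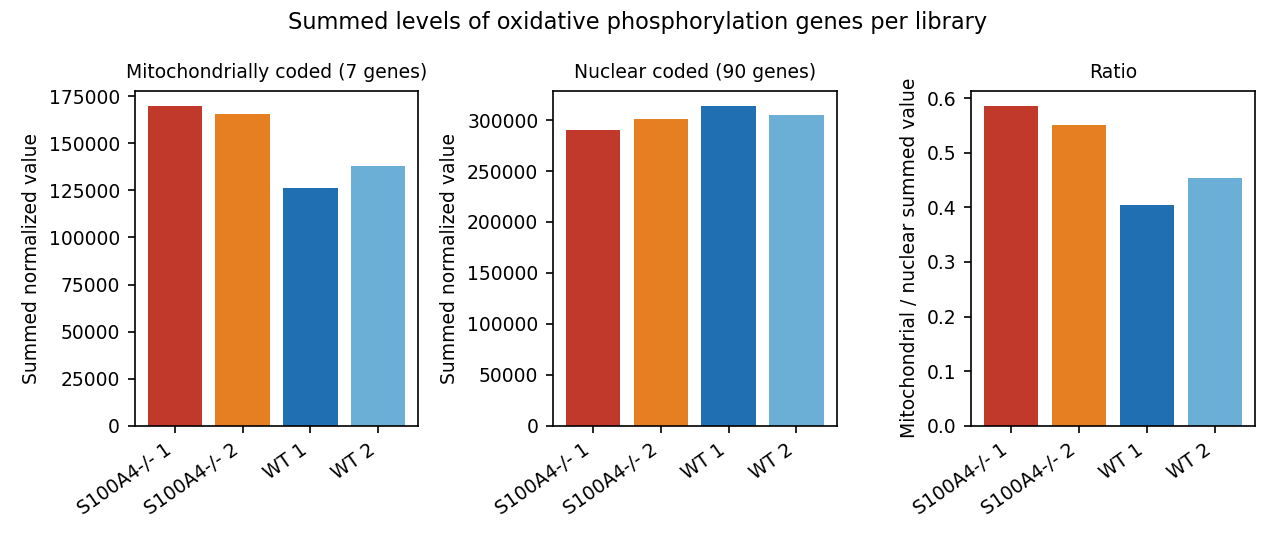
Bars give, for each library, the summed normalized value of the 7 mitochondrially coded genes (left), that of the 90 nuclear coded genes (middle) and their ratio (right); all axes start at 0. The ratio is 0.585 and 0.551 in S100A4-/- lenses and 0.404 and 0.453 in WT lenses.

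All 7 mitochondrial genes also passed edgeR's quasi-likelihood test and DESeq2 on the reads recovered from the values. With limma's trend term (which lets the spread follow the mean value) left off, none passed: their lowest adjusted p was then 0.148, and all genes gave 179 higher and 8 lower calls. Without S100A4-/- 1, 4 of the 7 passed in limma, without S100A4-/- 2, 6 did, without WT 1, 5 did, and without WT 2, all 7 did. mt-Nd2 was lost in 3 of these fits, its adjusted p ran up to 0.17, and without WT 1 its log2 fold change was 0.16 instead of 0.25.

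Genes used as markers of other tissues of the eye moved with genotype. All 12 rod and cone markers rose, with a median log2 fold change of 2.05 (9 of 12 in DESeq2), and their summed values were 8158, 7889, 1846 and 1972. Gnat1, the rod transducin, was the most abundant of them at 3339, 3327, 736 and 782. All 7 other retinal markers rose, with sums of 6886, 6786, 2133 and 2307, led in level by Glul, the glutamine synthetase of glia. Of 7 pigment and ciliary markers, 6 rose, and the 7 had sums of 2238, 2207, 967 and 1025. The most abundant of the 7, Mitf, was the one that did not rise, at 659, 617, 723 and 693. Of 5 macrophage markers, 3 rose (1 of 5 in DESeq2, Csf1r), with sums of 219, 204, 78.3 and 59.1 and Csf1r on top, and of 4 vessel markers Kdr rose, with sums of 158, 165, 86.7 and 114 and Tek on top. The 2 red cell globin genes found, of 3 listed, had no call by any of the 3 tools, none at an unadjusted p under 0.05, and sums of 76.2, 44.6, 42.8 and 23.0, with Hba-a1 on top. Of 4 muscle markers 1 was found, Ckm, at 173, 164, 256 and 212, which fell in limma and edgeR and was not called in DESeq2. No marker found was at 0 in any library. The authors report photoreceptor and Müller glia genes as induced in the lens itself, with qRT-PCR, immunoblots and immunofluorescence for some of them. These bulk values do not show which cells held the transcripts. The part of any such cells in the mitochondrial result was not tested.

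The nuclear coded genes were nearly level between genotypes, with a lean to lower values in S100A4-/- lenses. Of 90, 2 rose and 2 fell, where 5.62% and 1.33% of all genes tested were called higher and lower. Both S100A4-/- libraries lay below both WT libraries in 34 of 90 genes, or 37.8%, where 23.2% of all genes did so, and above in 6. An unadjusted p under 0.05 was found in 17 of 90, where 17.7% of all genes had one. The log2 fold change was below 0 in 68 of 90 genes, or 75.6%, against 51.2% of all genes, and in 58 to 68 of 90 genes under the other scalings. The 51.2% belongs to the main scaling, here and for the complexes below. Equal-total scalings multiply all values of a library by the same factor. The share of all genes below 0 then moves too, and it is not given under them. The median of the 90 was -0.076, and 84 of 90 genes lay within 1.2-fold of WT. The 9 lens markers leaned the same way, with a median of -0.063. The median of the 90 was below 0 under every scaling tried, at -0.042 under quantile normalization, and was -0.039 without S100A4-/- 1.

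**Figure D3:**
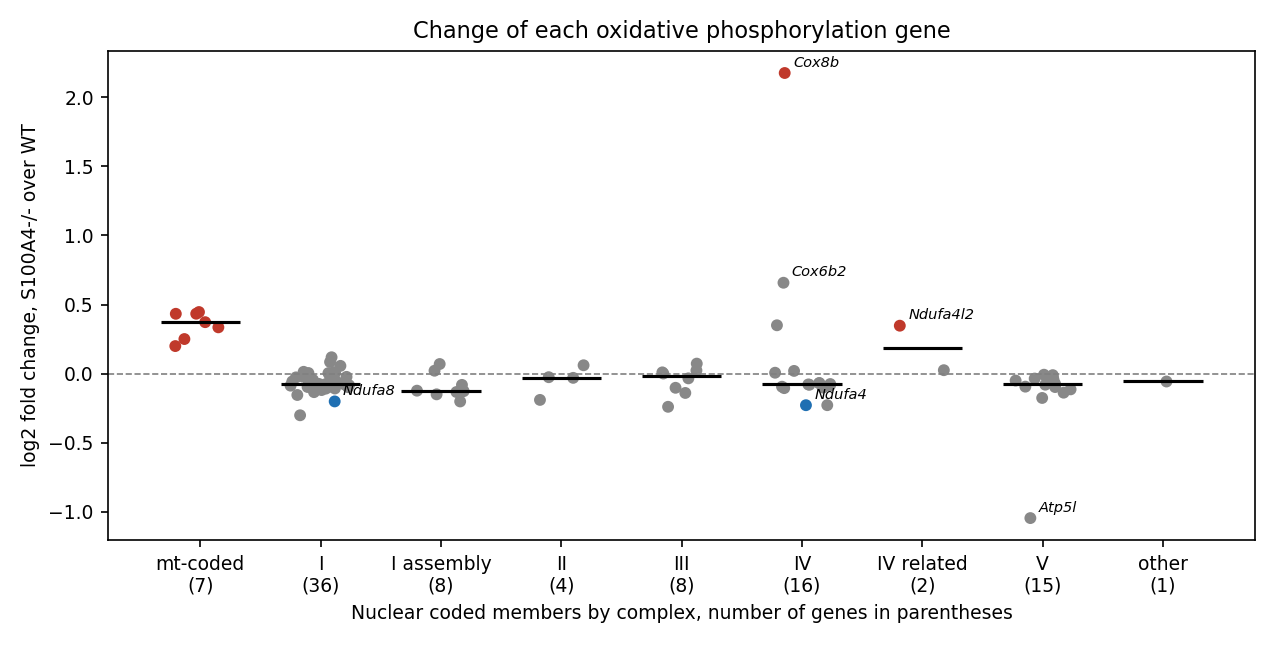
Each point is the log2 fold change of 1 gene, S100A4-/- over WT, with the mitochondrially coded genes in the first column and the nuclear coded genes by complex after it; black bars are medians, the dashed line is the median of all genes tested (-0.0052), red and blue points rose or fell at an adjusted p of at most 0.05. The mitochondrial median is 0.37 and the nuclear medians of complexes I to V lie between -0.077 and -0.017, with Cox8b far above at 2.18.

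Complex I, the NADH dehydrogenase, had 36 nuclear members. Of these, 28 had a log2 fold change below 0 (24 of 36 with equal totals), where 51.2% of all genes did. The median of the 36 was -0.077, which was -0.044 with equal totals of nuclear genes and -0.039 without S100A4-/- 1. Ndufa8, an accessory subunit (chromosome 2, 36036326 to 36049406), stood at 1488, 1515, 1744 and 1711 and was the member that passed the test, with a log2 fold change of -0.20 ± 0.06 (SE, adjusted p = 0.0449, limma). It passed in 8 of 18 alternatives, and not in DESeq2 (adjusted p = 0.174) or any fit with a library left out (adjusted p of 0.15 to 0.247). This 1 call was 2.78% of the 36, where 1.33% of all genes were called lower. Of the others, 4 had an unadjusted p under 0.05, where 17.7% of all genes did. Ndufa1, the accessory subunit with the highest level per kb of exon among nuclear subunits, stood at 16147, 15696, 17613 and 15966, and the groups overlapped. Ndufb8, which is often used as a marker of assembled complex I, stood at 5686, 5851, 5781 and 5938. The 7 nuclear core subunits, which carry the flavin and iron-sulfur centers, had no call by any of the 3 tools and none at an unadjusted p under 0.05. Their sums were 11034, 11707, 11473 and 11645, while the 29 accessory subunits summed to 88565, 89872, 95439 and 92059. The 8 complex I assembly factors (Ndufaf1 to Ndufaf8) had no call by any of the 3 tools, 1 at an unadjusted p under 0.05 and a median of -0.13.

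Complex II, succinate dehydrogenase, is shared with the citric acid cycle and has no mitochondrially coded subunit. Its 4 genes had no call by any of the 3 tools and 1 at an unadjusted p under 0.05, against 17.7% of all genes. The median was -0.029 and turned just above 0 under both equal-total scalings (0.00026 and 0.0041) and without S100A4-/- 1 (0.018). Sdha, the flavoprotein, stood at 3500, 3691, 3693 and 3653, and Sdhb, the iron-sulfur subunit, at 4735, 5108, 5047 and 4971. Sdhc, a membrane anchor, stood at 901, 940, 1063 and 1039. Sdhd, the other membrane anchor, stood at 1428, 1406, 1465 and 1261. The groups overlapped in Sdha, Sdhb and Sdhd, and stood apart in Sdhc.

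Complex III, which passes electrons from ubiquinol to cytochrome c, had 8 nuclear members with no call by any of the 3 tools and 3 at an unadjusted p under 0.05, against 17.7% of all genes. Uqcrq, a small subunit, stood at 5356, 5248, 5790 and 5899, with the groups apart (adjusted p = 0.0732, limma). Uqcrc2, a core protein, stood at 3984, 4007, 3898 and 3707, with the groups apart in the other direction. The median was -0.017, and it was above 0 under 3 other scalings, at 0.012 with equal totals, 0.016 with equal totals of nuclear genes outside the 10 most abundant and 0.00019 under quantile normalization. With a library left out this median moved both ways and stayed below 0, over the range given with the other processing choices below. In the same complex mt-Cytb, described above, rose.

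Complex IV, cytochrome c oxidase, had 16 nuclear members, of which 1 rose and 1 fell (6.25% each). Over all genes tested, 5.62% were called higher and 1.33% lower. The median of the 16 was -0.077, which was -0.042 under quantile normalization and -0.028 without S100A4-/- 1. Ndufa4, a subunit first assigned to complex I (chromosome 6, 11900292 to 11907497), stood at 5833, 5840, 6857 and 6827. It fell by 0.23 ± 0.05 on the log2 scale (SE, adjusted p = 6.89e-04, limma), and the libraries of each genotype were close to each other. With a correction for gene length and GC content its log2 fold change was -0.12 (adjusted p = 0.0815, limma), and it did not pass with the trend term left off (adjusted p = 0.287, limma). Its paralog Ndufa4l2, counted apart from the 16 and known as a target of hypoxia-inducible factor (chromosome 10, 127514967 to 127517154), stood at 651, 721, 525 and 552. It rose by a log2 fold change of 0.35 ± 0.09 (SE, adjusted p = 0.0101, limma), and it did not pass in DESeq2 (adjusted p = 0.0938) or without S100A4-/- 1, S100A4-/- 2 or WT 1 (adjusted p = 0.0987, 0.261 and 0.0827). Cox4i1, the common form of subunit 4, stood at 17136, 17266, 18678 and 17672 and did not pass (adjusted p = 0.339).

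Cox8b, the heart and muscle form of subunit 8 (chromosome 7, 140898945 to 140900446), was the one gene of the 97 both past 2-fold and past the test, where 3.65% of all genes tested were called 2-fold higher and 0.0744% 2-fold lower by the same rule, with no member among the latter. It stood at 29.1, 26.4, 5.22 and 5.47, from 34, 26, 5 and 5 reads. It passed the filter on low values through the S100A4-/- libraries alone, since both WT values lay below the minimum. Its mean value of 16.5 was too low for the stricter filter tried, on the mean value, and it was not tested there. Its log2 fold change was 2.18 ± 0.56 (SE, adjusted p = 0.00973, limma). The call was lost without either S100A4-/- library (adjusted p = 0.201 and 0.156) and under quantile normalization (adjusted p = 0.0605).

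Complex V had 15 nuclear members, all with a log2 fold change below 0, where 51.2% of all genes were, and a median of -0.072. But 3 of 15 were above 0 with equal totals, 4 with equal totals of nuclear genes and 4 under quantile normalization. There the median was -0.024. It was -0.030 without S100A4-/- 1. None was called by any of the 3 tools, and 2 had an unadjusted p under 0.05, where 17.7% of all genes did. Atp5e, the epsilon subunit, stood at 10370, 10638, 11892 and 11241, and its log2 fold change of -0.14 came nearest to the threshold (adjusted p = 0.0518, limma), which it passed with a pseudocount of 5 (adjusted p = 0.0447, limma). Atp5mpl, a small membrane subunit, stood at 2334, 2446, 2762 and 2642 (log2 fold change -0.18, adjusted p = 0.0535, limma). Both genes had all S100A4-/- values below all WT values. Atp5b, the catalytic beta subunit and the nuclear member with the most reads, stood at 31117, 33103, 32462 and 33088, where the groups overlapped. Atp5a1, the alpha subunit, stood at 9226, 10311, 9801 and 9863. Atp5l, the subunit lowest in level, was counted at 7, 8, 14 and 15 reads. Its log2 fold change of -1.05 was past 2-fold but did not pass the test (adjusted p = 0.397, limma). Atp5l shares sequence with other genes and only single-locus reads were counted, so its level may be understated. How far was not tested.

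Tissue-restricted forms of complex IV subunits were low beside their common partners, and levels are compared here as normalized value per kb of exon. The ratio of Cox8a, the common form, to Cox8b was 163 in S100A4-/- lenses and 892 in WT lenses. The ratio of Ndufa4 to Ndufa4l2 was 6.75 in S100A4-/- lenses and 10.1 in WT lenses. Cox6b2, the testis form of subunit 6b, had normalized values of 100, 103, 63.7 and 64.6 (log2 fold change 0.66, adjusted p = 0.0709, limma), and the ratio of Cox6b1 to Cox6b2 was 69.3 against 117. Cox4i2, the lung form of subunit 4, stood at 73.6, 78.0, 60.6 and 58.0, with the groups apart but an adjusted p of 0.498 (limma). The muscle forms Cox6a2 (8.56, 23.3, 12.5 and 18.6) and Cox7a1 (8.56, 6.08, 11.5 and 4.38) overlapped between groups. Cox7a2l, which takes part in joining complexes III and IV, stood at 1477, 1622, 1547 and 1497. In ATP synthase, the c-ring genes Atp5g3 and Atp5g1 had a ratio of 46.9 in S100A4-/- lenses and 44.2 in WT lenses.

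**Figure D4:**
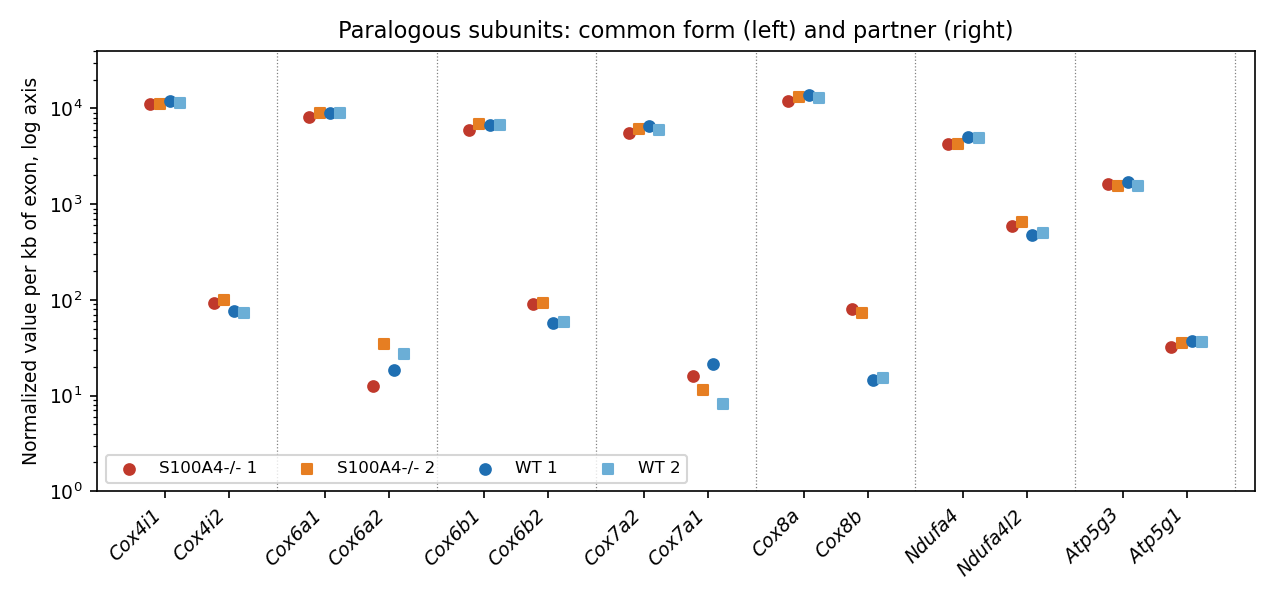
Normalized value per kb of exon (log axis) of 7 pairs of paralogous subunits in the 4 libraries, with the common form left and its partner right in each pair; red and orange are S100A4-/- 1 and 2, dark and light blue WT 1 and 2. The points of the partner stand apart between genotypes for Cox8b (80.9 and 73.2 against 14.5 and 15.2), while Cox6a2 and Cox7a1 overlap.

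Per kb of exon, the 7 mitochondrially coded genes had a median WT level of 13998, from 1438 for mt-Nd6 to 37008 for mt-Cytb. The 79 nuclear subunits had a median WT level of 1490, from 2.41 for Atp5l to 40070 for Ndufa1. The authors counted reads that mapped to 1 locus, so sequence shared with other genes lowers these levels. Of all 50-base windows, 62.2% of mt-Nd4 and 51.1% of mt-Co1 were found in transcripts of another annotated gene, and none of mt-Cytb, mt-Nd1 or mt-Nd6. Copies of mitochondrial sequence in the nuclear genome outside annotated transcripts were not examined, and they may lower the levels too. Of the 97 genes, 42 shared no window and 9 shared over 20%. Cox8b, Ndufa4, Ndufa4l2 and Ndufa8 shared none. Atp5l, at the bottom of the nuclear range, shared 9.99% over all its annotated transcripts, and how that share spreads over them was not examined.

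Promoters (250 bases before to 50 after the start, from RefSeq, build GRCm38.p6) were found for 72 of the 90 nuclear genes, and letters of 6 known motifs were searched on both strands. The NRF1 letters GCGCATGCGC, of the nuclear respiratory factor, stood in promoters of 6 of the 72 genes, or 8.33%. They stood in 0.974% of all 32544 promoters and in promoters of 2.16% of the 11101 genes of the table that have one. The first of these shares is counted by promoter and the other by gene, as for the members, here and for the motifs below. The ETS letters CCGGAAG, bound by GABP among others, stood in 25% against 8.91% and 18.8%. The ERR letters TCAAGGTCA stood in 2.78% against 0.412% and 0.324%. The hypoxia response letters ACGTG stood in 22.2% against 19.7% and 28.9%, the CRX letters TAATCC in 8.33% against 7.06% and 7.26%, and the letters CCAAT in 44.4% against 37.4% and 42.7%. A match is a description of the sequence, not a bound site.

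Both promoters that held NRF1 and ETS letters together are shown with that of Cox8b, the member with the largest fold change, which held neither. Cox6a1 lies at chr5:115348909-115349208, Atp5k at chr5:108434350-108434649 and Cox8b at chr7:140900397-140900696, all on the minus strand of GRCm38.p6. Capitals mark NRF1, ETS or hypoxia response letters on either strand.
Cox6a1: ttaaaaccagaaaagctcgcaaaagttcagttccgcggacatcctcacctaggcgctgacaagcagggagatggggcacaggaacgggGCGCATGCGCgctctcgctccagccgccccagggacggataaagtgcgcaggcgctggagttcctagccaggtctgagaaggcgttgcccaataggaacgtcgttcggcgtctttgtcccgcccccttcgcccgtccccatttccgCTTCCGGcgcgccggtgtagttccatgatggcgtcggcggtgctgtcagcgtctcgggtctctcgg
Atp5k: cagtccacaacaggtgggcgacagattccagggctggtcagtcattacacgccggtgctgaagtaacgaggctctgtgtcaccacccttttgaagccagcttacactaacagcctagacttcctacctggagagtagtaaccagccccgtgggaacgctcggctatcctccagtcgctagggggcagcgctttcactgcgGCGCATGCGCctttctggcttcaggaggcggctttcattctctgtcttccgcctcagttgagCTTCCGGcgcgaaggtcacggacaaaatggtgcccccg
Cox8b: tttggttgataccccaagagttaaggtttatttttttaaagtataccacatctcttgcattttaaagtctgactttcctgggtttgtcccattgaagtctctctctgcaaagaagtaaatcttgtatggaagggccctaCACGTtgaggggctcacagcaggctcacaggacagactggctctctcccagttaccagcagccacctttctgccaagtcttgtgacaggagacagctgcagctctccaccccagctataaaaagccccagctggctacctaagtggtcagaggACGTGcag
Cox6a1, the common form of subunit 6a, stood at 5722, 6296, 6274 and 6316, and Atp5k, a membrane subunit of ATP synthase, at 4437, 4425, 4841 and 4536. Neither passed the test (adjusted p = 0.517 and 0.435, limma). The promoters of Ndufa4 and Ndufa8 held none of the letters of the 6 motifs.

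The assembly factors outside the member rule, the electron carriers and the citric acid cycle genes held no call by limma, edgeR or DESeq2, beside 17.7% of all genes at an unadjusted p under 0.05. Of 38 further assembly factors 37 were found, with 4 at an unadjusted p under 0.05 and a median of -0.051. Of 11 genes for cytochrome c, electron carriers and subunits under other symbols, 10 were found, with 4 at an unadjusted p under 0.05. Etfb, the electron transfer flavoprotein beta subunit, was among the latter at 3746, 4336, 4606 and 4419. The 17 citric acid cycle genes had a median of -0.050, with 3 at an unadjusted p under 0.05. Pcx, pyruvate carboxylase, had the smallest p of them at 363, 352, 292 and 281 (adjusted p = 0.103, limma).

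**Figure D5:**
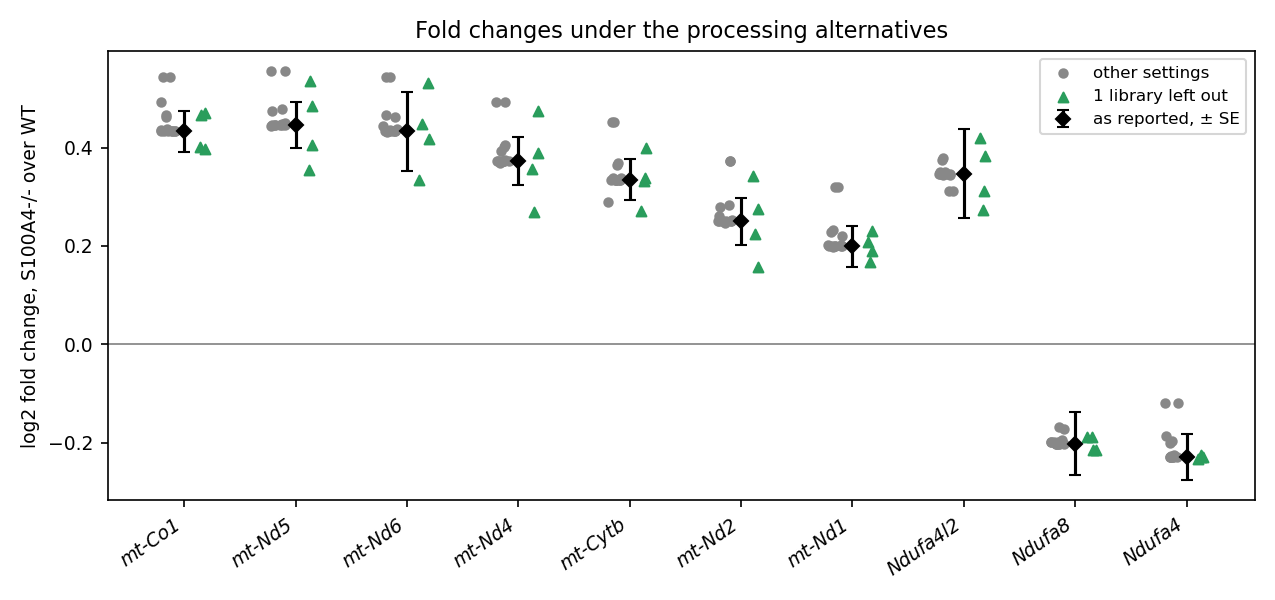
Log2 fold change, S100A4-/- over WT, of the 7 mitochondrially coded genes and of 3 nuclear genes that passed the test; black diamonds are the reported values with the SE, grey points the other settings and green triangles fits with 1 library left out. All points of mt-Co1 lie between 0.40 and 0.54, and no gene shown crosses 0.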

How the data were processed

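Stranded polyA libraries shared 1 lane. After Trim Galore and alignment by STAR to GRCm38 (mm10), the authors counted single-locus reads with HTSeq, dropped genes that reached 10 reads in no library and deposited DESeq2-normalized signal values, not divided by length. Tool versions are not given in the sources used here. Every value was a whole multiple of 1 read within 0.02 read, so reads were recovered (1 read was worth 0.856, 1.01, 1.04 and 1.09).

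Gene IDs were paired with symbols for 14782 of 14924 genes. The 14780 genes that reached a value of 10 in any library were fitted with limma 3.58.1 (trend) on log2(value + 1), which understates fold changes of low genes. Alternatives included edgeR 4.0.16 and DESeq2 1.42.0 on recovered reads. In data simulated for this comparison (14387 genes), limma called 98 of 100 genes changed 1.35-fold and 100 of 100 changed 3-fold, all with a mean value of at least 500, and 10 unchanged genes. Shared windows came from GENCODE M21 transcripts. The labels call the libraries biological repeats.

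Members and lists were chosen with earlier results of these data known. Genes were named if mitochondrially coded, past the threshold, among the 3 highest of a complex, lowest in level or a tissue-restricted form or its partner; other lists gave up to 6 called genes each. Sdhc, Atp5mpl, Atp5k, Gja1, Cdh1, Mip, Etfb, Pcx and Polrmt fall outside this rule and were named after their values were seen.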

Additional observations from a re-analysis of the deposited data

How the results depend on the processing

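The 18 alternatives were run on counts of calls, medians and the fold changes of 43 named genes. Of the calls in the 97 genes, 9 were higher and 2 lower. The lower count was 4 with a pseudocount of 5, 1 with TMM factors, equal totals, equal totals of nuclear genes outside the 10 most abundant, quantile normalization or DESeq2, and 0 in limma without trend. Without trend the higher count was 1, with 0 of the 7 mitochondrial genes and 1 nuclear gene, and over all genes the calls were 179 higher and 8 lower, of which 174 and 7 were past 2-fold. Over all genes, 831 were higher and 197 lower, of which 539 and 11 were past 2-fold. With a mean value of at least 50, 549 genes were higher, 281 and 6 were past 2-fold, and 0 members were 2-fold higher. Lower calls over all genes were 55 with equal totals, 99 with equal totals of nuclear genes outside the 10 most abundant, 677 with the length and GC correction and 91 in DESeq2, and 2-fold lower calls were 25 under quantile normalization and 6 in DESeq2. Nuclear members called higher numbered 1 instead of 2 with a mean value of at least 50, under quantile normalization and in DESeq2, and 2-fold higher members 0 under quantile normalization.

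The labels number the libraries 1 and 2 in both groups but do not say that a number marks a shared pool. Deviations of same-numbered libraries from their group means had r = 0.0119 across 14780 genes and 0.0559 across the 11340 genes left when the minimum was a mean value of 50. With the replicate block, 6 members and 348 genes in all were lower. With the replicate block and the length and GC correction, 8 members and 902 genes were lower, 21 genes past 2-fold. Atp5e and Uqcrq were gained in both of these fits (adjusted p = 0.0102 and 0.025 with the block alone, limma) and Cox6b2 and Cox4i1 in the latter (adjusted p = 0.0426 and 0.0492, limma).

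The mitochondrial median of 0.37 was 0.49 with the length and GC correction, with or without the replicate block. The nuclear median was -0.043 with equal totals of nuclear genes outside the 10 most abundant and -0.042 under quantile normalization. The complex I median was -0.048 with equal totals, -0.044 with equal totals of nuclear genes and -0.055 under quantile normalization, the complex II median 0.00026, 0.0041 and -0.00092 under these 3 scalings, the complex III median 0.012, 0.016 and 0.00019, the complex IV median -0.048, -0.044 and -0.042, and the complex V median -0.024 under quantile normalization.

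With a library left out (the lone library then assumed to vary like the other group), members called higher ranged from 4 to 9 and lower from 1 to 2, mitochondrial genes from 4 to 7, nuclear genes higher from 0 to 2 and 2-fold members from 0 to 1. All genes called higher ranged from 218 to 803 and lower from 31 to 111, past 2-fold from 168 to 546 and from 4 to 13. The counts over all genes were lowest without S100A4-/- 1. Medians ranged from 0.27 to 0.42 (mitochondrial), -0.080 to -0.039 (nuclear), -0.080 to -0.039 (complex I), -0.075 to 0.018 (complex II), -0.059 to -0.0033 (complex III), -0.092 to -0.028 (complex IV) and -0.096 to -0.030 (complex V), and the ratio of summed mitochondrial values from 1.22 to 1.33.

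Small fold changes turned sign. With equal totals, Atp5a1 was at 0.017, Atp5g3 at 0.0027, Ndufa13 at 0.0012, Ndufb8 at 0.0065 and Sdhb at 0.0026. With equal totals of nuclear genes, Atp5a1 was at 0.021, Atp5b at 0.0028, Atp5g3 at 0.0066, Ndufa13 at 0.0051, Ndufb8 at 0.010, Sdha at 0.0018 and Sdhb at 0.0065. Under quantile normalization, Atp5a1 was at 0.031, Atp5b at 0.030, Cox7a1 at -0.58, Ndufa13 at 0.012, Ndufb8 at 0.0041 and Sdhb at 0.0028. Cox7a1 was at -0.0205 with a pseudocount of 5, at -0.0079 with the length and GC correction (with or without the replicate block) and at -0.11 in edgeR and DESeq2, and Cox6a2 at 0.010 in edgeR and 0.023 in DESeq2. With a library left out, Atp5a1 ranged from -0.092 to 0.069, Atp5b from -0.075 to 0.014, Atp5g3 from -0.096 to 0.043, Cox6a1 from -0.14 to 0.00010, Cox6a2 from -0.77 to 0.58, Cox6b1 from -0.19 to 0.018, Cox7a1 from -0.60 to 0.61, Cox7a2l from -0.043 to 0.092, Ndufa13 from -0.069 to 0.013, Sdha from -0.070 to 0.0072, Sdhb from -0.081 to 0.028 and Sdhd from -0.048 to 0.17. Of these genes, Cox6a1 passed in 1 alternative, the replicate block with the length and GC correction (adjusted p = 0.0468, limma), and the others in none; the cause of each change was not tested.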

Other observations

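Among 14 genes found of 16 for mitochondrial carriers and energy transfer, 3 rose and none fell (21.4% and 0%, where 5.62% and 1.33% of all genes did), and 5 had an unadjusted p under 0.05, where 17.7% of all genes did, with a median log2 fold change of -0.020. Ucp2, an uncoupling carrier of the inner membrane, had normalized values of 322, 314, 135 and 139 in S100A4-/- 1, S100A4-/- 2, WT 1 and WT 2, and passed in all 18 alternatives. Its log2 fold change was 1.21 ± 0.14 (SE, adjusted p = 2.80e-08, limma). Ckb, the brain form of creatine kinase, stood at 1455, 1721, 1232 and 1253 (log2 fold change 0.35, adjusted p = 7.96e-04, limma), and did not pass without S100A4-/- 2 (adjusted p = 0.175). Ckmt1, a mitochondrial creatine kinase, stood at 38.5, 38.5, 10.4 and 3.29 (adjusted p = 0.00119, limma), and did not pass without either S100A4-/- library (adjusted p = 0.178 and 0.165). Retinal markers rose in the same libraries, and their part in these values was not tested.

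Of 21 genes for mitochondrial biogenesis and the upkeep of mitochondrial DNA, 19 were found. Ppargc1a, a coactivator of mitochondrial genes, was the one that rose (5.26% of 19, where 5.62% of all genes rose), at 109, 79.0, 49.1 and 51.5 (log2 fold change 0.87 ± 0.25, SE, adjusted p = 0.0224, limma), and it did not pass in DESeq2 (adjusted p = 0.155) or without either S100A4-/- library (adjusted p = 0.417 and 0.127). Under quantile normalization the log2 fold change of Ppargc1a was 0.69 and it did not pass (adjusted p = 0.117, limma). Without the trend term it did not pass either (adjusted p = 0.210, limma). Polrmt, the mitochondrial RNA polymerase, stood at 378, 356, 316 and 308 and did not pass (adjusted p = 0.278).

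Of 76 mitochondrial ribosomal protein genes, none rose and 2 fell (2.63%, where 1.33% of all genes fell), with a median log2 fold change of -0.068, and 6 had an unadjusted p under 0.05, where 17.7% of all genes did. Mrpl36 stood at 437, 395, 530 and 549 (log2 fold change -0.38, adjusted p = 0.0113, limma) and Mrps15 at 702, 720, 833 and 877 (log2 fold change -0.27, adjusted p = 0.0358, limma). Neither passed in DESeq2 (adjusted p = 0.113 and 0.204), and each was lost in 3 or more of the fits with a library left out. With equal totals both calls were lost (adjusted p = 0.0744 and 0.205, limma), as they were without the trend term (adjusted p = 0.226 and 0.277, limma). Mrps15 was lost with equal totals of nuclear genes outside the 10 most abundant and under quantile normalization too (adjusted p = 0.103 and 0.0720, limma). Mrpl36 lies beside Ndufs6 on chromosome 13 and overlaps it by the annotated positions (73328513 to 73332178 against 73319838 to 73328542).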
